A study of Homo sapiens with 18 samples.

Results

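The 10 genes described here encode 9 G protein-coupled receptors that place B cells within lymphoid tissue, S1PR1, S1PR2, S1PR4, GPR183, P2RY8, CXCR4, CXCR5, CCR6 and CCR7, and GNA13, the G protein alpha subunit through which S1PR2 and P2RY8 signal. They were chosen by gene symbol, and each symbol matched 1 of the 58735 genes in the count table. RNA had been counted in 18 libraries of OCI-Ly18-GFP, cells of a human line established from diffuse large B-cell lymphoma (DLBCL) and carrying green fluorescent protein, sorted from tumours grown beneath the skin of NSG mice, which lack T, B and natural killer cells of their own. Mice M_767, M_768 and M_774 had received tazemetostat (EPZ6438), which inhibits the enzyme EZH2, by mouth at 150 mg/kg daily for 14 days, starting on day 3 after implantation, and mice M_766, M_769 and M_770 had received vehicle over the same period. CART19 (engineered T cells that carry a chimeric antigen receptor) followed in all 6 mice, and tumours were taken on day 11 after that infusion, so both groups describe tumour cells exposed to CART19. Mice infused with UTD cells were not analysed here. The line is a single culture-derived population, and the tumour site is not a lymphoid organ. The comparison asks how earlier EZH2 inhibition altered transcripts of the lymphoma cells.

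In a germinal center, B cells move between a dark zone, to which CXCR4 draws them, and a light zone, and CXCR5 brings them into the follicle through its ligand CXCL13. S1PR2 and P2RY8 act through GNA13 and the exchange factor ARHGEF1 to hold cells inside the germinal center, whereas S1PR1 draws lymphocytes towards sphingosine-1-phosphate in blood and lymph, GPR183 (EBI2) towards oxysterols at the outer follicle, CCR7 towards the T-cell zone and CCR6 towards CCL20. Loss-of-function mutations of S1PR2, P2RY8 and GNA13 recur in lymphomas of germinal center origin. No genotype of these genes was examined here.

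The sequences before the start sites of 4 of the genes are given because S1PR1 and S1PR2 were the members whose levels did not overlap between the groups, and because CXCR4 and GPR183 show a window rich in CpG and one poor in it. Each is the 250 bases before a RefSeq start site (GRCh38.p14), written 5′ to 3′ on the gene's strand. Capitals mark matches to the KLF site CACCC, the GC box GGGCGG or the cyclic AMP response element TGACGTCA on either strand, and neighbouring matches can run together.
S1PR1 (chr1:101236769-101237018, plus strand): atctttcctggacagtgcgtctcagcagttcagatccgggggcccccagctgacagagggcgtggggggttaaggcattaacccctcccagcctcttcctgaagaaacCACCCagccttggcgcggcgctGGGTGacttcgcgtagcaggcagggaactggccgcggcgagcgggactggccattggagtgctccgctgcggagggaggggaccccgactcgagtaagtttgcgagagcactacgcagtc
S1PR2 (chr19:10231332-10231581, minus strand): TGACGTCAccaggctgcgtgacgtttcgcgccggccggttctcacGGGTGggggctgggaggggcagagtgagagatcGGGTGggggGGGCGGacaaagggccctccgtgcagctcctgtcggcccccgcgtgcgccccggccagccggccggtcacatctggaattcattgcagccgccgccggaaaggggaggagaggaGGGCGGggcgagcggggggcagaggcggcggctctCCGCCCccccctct
CXCR4 (chr2:136118150-136118399, minus strand): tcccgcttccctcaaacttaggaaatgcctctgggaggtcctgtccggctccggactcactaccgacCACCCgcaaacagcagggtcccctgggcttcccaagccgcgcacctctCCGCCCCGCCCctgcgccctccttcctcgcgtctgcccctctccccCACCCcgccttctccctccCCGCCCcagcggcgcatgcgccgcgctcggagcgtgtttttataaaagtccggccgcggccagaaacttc
GPR183 (chr13:99307400-99307649, minus strand): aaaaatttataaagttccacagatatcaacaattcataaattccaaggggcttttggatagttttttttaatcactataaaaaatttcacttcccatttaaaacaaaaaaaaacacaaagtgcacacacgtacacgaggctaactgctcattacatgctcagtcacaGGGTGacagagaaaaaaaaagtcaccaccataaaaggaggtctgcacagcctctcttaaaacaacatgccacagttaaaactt

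The S1PR1 sequence held 2 KLF sites and no GC box. S1PR2 held 2 KLF sites, 3 GC boxes and the cyclic AMP response element, the last at 250 bases before the start site and present in 1.65% of 35087 such windows. A KLF site was present in 54.7% of the windows and a GC box in 42.6%. CXCR4 held 2 KLF sites and 3 GC boxes, of which a pair overlap, and GPR183 held 1 KLF site. The FOXO site GTAAACA, the octamer ATGCAAAT and the E box CAGGTG, present in 2.98%, 1.63% and 17.5% of the windows, had no match in any of the 9 members with an entry, and CCR7 had no entry. The motifs were chosen with the sequences and levels in view. In GC content the windows ran from 34.4% for GPR183 and 35.6% for CCR6 to 74.0% for S1PR2 and 82.0% for GNA13, against a median of 58.0% over all windows. CXCR4 (68.0%), S1PR4 (66.8%), S1PR1 (64.4%), CXCR5 (57.2%) and P2RY8 (54.0%) lay between, and 2 entries start far from the gene start in the count table's annotation, CXCR5 by 9626 bases and S1PR4 by 6423 bases. The S1PR1 start site lies 154 bases inside the gene's span in that annotation, and both of its KLF sites fall within that span. GNA13 had 39 CpG dinucleotides, S1PR2 had 27 and CXCR4 had 24, against 2 in GPR183 and 1 in CCR6, where the median window had 11.

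The mouse is the unit of treatment, so the libraries A, B and C of a mouse were summed. Depth ran from 16124494 to 26336269 counts a library, and the mouse sums from 55712115 to 69816184. Library M_768_C of the tazemetostat group stood apart, with a TMM scaling factor of 0.901 where the others had 0.978 to 1.03. The log2 fold changes of the tested members without it are given below. The B-cell label was checked against defining markers, in CPM (counts per 1000000 counts of the mouse). Of 10 B-cell markers, 5 had positive log2 fold changes, CD79A, MS4A1 and PAX5 among them, and 5 negative (median -0.03). BLK, which had the smallest edgeR p of the 10, averaged 200 ± 13.3 CPM in tazemetostat mice and 248 ± 13.6 CPM in vehicle mice. CD79A averaged 298 ± 21.2 CPM in tazemetostat mice and 281 ± 21.3 CPM in vehicle mice, MS4A1 averaged 382 ± 7.61 CPM in tazemetostat mice and 314 ± 71.0 CPM in vehicle mice, and PAX5 averaged 593 ± 128 CPM in tazemetostat mice and 577 ± 36.2 CPM in vehicle mice (SD, n = 3 each). Of 28 T-cell markers, CD3D, CD3G and GZMK had no count in any mouse and CD3E had 1 to 7 counts in tazemetostat mice and 3 to 9 in vehicle mice, so these CD3 chains were at or near 0. Other genes of that list were well above 0. In tazemetostat mice IL7R averaged 190 CPM, TRBC2 107, CD247 49.2, ZAP70 32.1, TRAC 12.501 and LCK 9.48 CPM. In vehicle mice IL7R averaged 223 CPM, TRBC2 115, CD247 36.6, ZAP70 37.1, TRAC 11.8 and LCK 12.45 CPM. The 28 together were at 396 to 420 CPM in tazemetostat mice and 412 to 469 CPM in vehicle mice, and their part in the levels of the 10 genes was not tested. EZH2, whose protein is the drug target, averaged 208 ± 8.40 CPM in tazemetostat mice and 207 ± 9.02 CPM in vehicle mice (SD, n = 3 each).

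Levels of different genes were compared as CPM per kilobase of the gene length deposited with the counts. By this measure CXCR4 was the highest of the 10 and CCR6 the lowest. CXCR4 averaged 290 ± 13.3 CPM per kilobase in tazemetostat mice and 269 ± 26.4 in vehicle mice (SD, n = 3 each), 4.38 times the level of the next gene over all mice. GNA13 followed at 67.2 ± 5.89 CPM per kilobase in tazemetostat mice and 60.4 ± 12.8 in vehicle mice. S1PR4 averaged 41.2 ± 3.01 CPM per kilobase in tazemetostat mice and 48.4 ± 12.9 in vehicle mice. The order of GNA13 and S1PR4 held in 5 of 6 mice and 14 of 18 libraries, so this pair did not differ beyond its spread.

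Among the confinement receptors, S1PR2 averaged 20.4 ± 1.25 CPM per kilobase in tazemetostat mice and 26.0 ± 2.06 in vehicle mice. P2RY8 came next at 18.03 ± 0.910 CPM per kilobase in tazemetostat mice and 18.2 ± 0.284 in vehicle mice, below S1PR2 in all 6 mice. GPR183 was at 16.8 ± 0.967 CPM per kilobase in tazemetostat mice and 13.7 ± 3.14 in vehicle mice, below P2RY8 in 6 of 6 mice and 17 of 18 libraries. S1PR1, the egress receptor, was 5.71 times lower than GPR183 over all mice, at 3.15 ± 0.349 CPM per kilobase in tazemetostat mice and 2.19 ± 0.103 in vehicle mice. CCR7 was close to it, at 2.16 ± 0.231 CPM per kilobase in tazemetostat mice and 2.34 ± 0.339 in vehicle mice. This pair kept its order in 4 of 6 mice and 11 of 18 libraries, and did not differ beyond its spread. CXCR5 averaged 0.653 ± 0.248 CPM per kilobase in tazemetostat mice and 0.627 ± 0.496 in vehicle mice. All 9 neighbouring pairs stood in this order in 8 of 18 libraries, and no library had fewer than 7 of them in order.

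**Figure D1:**
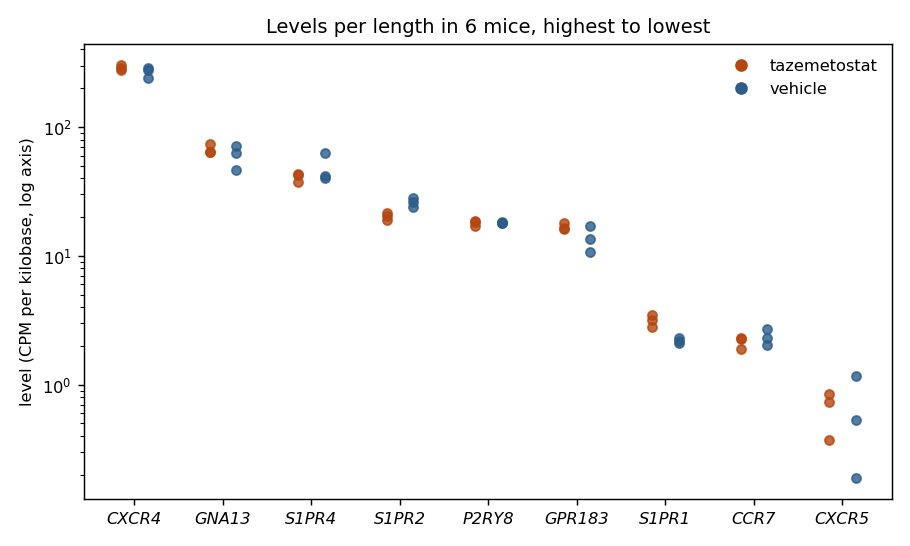
Level of 9 of the genes in each mouse (CPM per kilobase, log axis), tazemetostat mice to the left and vehicle mice to the right of each position. CXCR4 sits highest, GNA13 with S1PR4, P2RY8 with GPR183 and S1PR1 with CCR7 overlap, and CXCR5 has the widest spread between mice. CCR6, with 10 counts in all, is not drawn.

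Of the 10 genes, 9 had enough counts to test, and none passed an adjusted p of 0.05 between tazemetostat and vehicle mice (edgeR quasi-likelihood test, Benjamini-Hochberg adjustment over 20301 genes, n = 3 mice a group). Over all tested genes 0.0345% passed, 0.0197% higher and 0.0148% lower in tazemetostat mice. At an unadjusted p under 0.05 there were 2 of 9 members, S1PR1 on the higher side and S1PR2 on the lower side, against 6.55% of all tested genes (3.34% higher and 3.21% lower). The same pair were the members whose 3 tazemetostat values lay wholly apart from their 3 vehicle values, which held for 12.6% of all tested genes (6.58% higher and 6% lower). The median log2 fold change of the 9 was 0.07, and -0.01 over all tested genes, with 5 members positive and 4 negative. With other tools, DESeq2 passed S1PR1 (adjusted p = 0.0166), and limma, fitted to the 18 libraries with a random effect for the mouse, passed S1PR1 (adjusted p = 0.00267) and S1PR2 (adjusted p = 0.00373). DESeq2 called 0.611% of all genes it tested, and the limma fit 1.38%. That limma fit used 1 correlation between libraries of a mouse, 0.423, for all genes. On the mouse sums limma called 0.0246% of genes and no member.

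**Figure D2:**
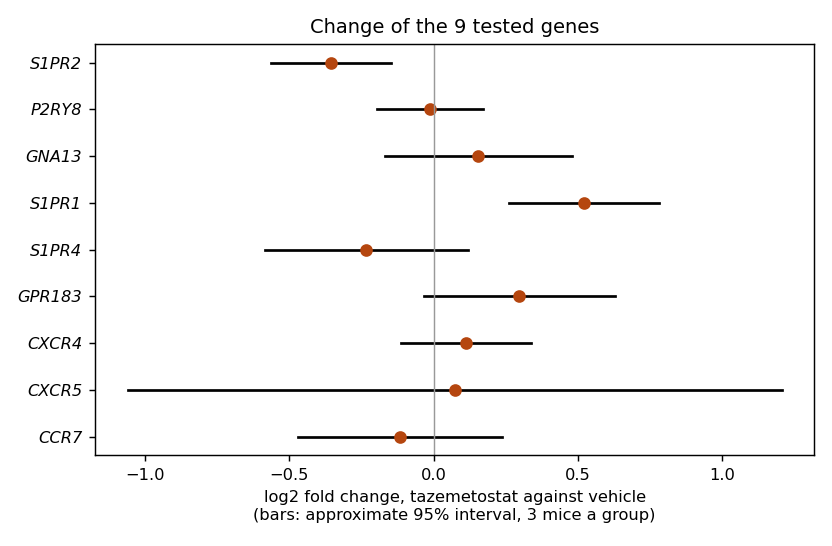
Log2 fold change of tazemetostat against vehicle mice for the 9 tested genes, with approximate 95% intervals from the edgeR fit (3 mice a group). S1PR2 lies below 0 and S1PR1 above it with intervals clear of 0, the other intervals span 0, and CXCR5 has the widest.

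S1PR2 (chromosome 19, 10221433 to 10231331, minus strand) couples sphingosine-1-phosphate to arrest of movement. It stood at 69.6, 74.1 and 78.7 CPM in tazemetostat mice M_767, M_768 and M_774, against 102, 95.8 and 86.9 CPM in vehicle mice M_766, M_769 and M_770. Every tazemetostat mouse was below every vehicle mouse, and the libraries kept apart too, at 66.8 to 81.5 CPM and 82.0 to 107 CPM, with the nearest of them less than 1 CPM from each other. The log2 fold change was -0.36 (SE 0.0941, 95% interval -0.56 to -0.15, edgeR adjusted p = 0.445). In bulk RNA, fewer cells expressing a gene and less RNA per cell cannot be told apart. All but the first bases of the S1PR2 model lie within that of DNMT1, a DNA methyltransferase on the same strand, and 83 of its 3643 exon bases are also exon of DNMT1. DNMT1 averaged 721 ± 44.2 CPM in tazemetostat mice and 817 ± 41.1 CPM in vehicle mice (log2 fold change -0.18, edgeR adjusted p = 0.816), and its part in the S1PR2 difference was not tested.

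P2RY8 (chromosome X, 1462572 to 1537107, minus strand), a receptor for S-geranylgeranyl-L-glutathione, was the steadiest of the 9. It was at 83.5, 75.8 and 81.9 CPM in tazemetostat mice M_767, M_768 and M_774, against 80.8, 79.9 and 82.4 CPM in vehicle mice M_766, M_769 and M_770. The groups overlapped, and the standard deviation of log2 CPM within groups was 0.0545, lower than in all but 3.7% of tested genes, where the median was 0.205. The interval of its log2 fold change ran from -0.20 to 0.17 (estimate -0.01, edgeR adjusted p = 0.990). The lowest of its 18 libraries was M_768_C, at 66.5 CPM, and without that library the estimate was 0.01. The gene lies in the region shared by the X and Y chromosomes and was counted once, on X.

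GNA13 (chromosome 17, 65010715 to 65056839, minus strand) carries the signal of both confinement receptors into the cell. Tazemetostat mice M_767, M_768 and M_774 had 378, 325 and 326 CPM, against 238, 321 and 366 CPM in vehicle mice M_766, M_769 and M_770. The groups overlapped, and vehicle mouse M_766 was far below the others. The log2 fold change was 0.15 (SE 0.146, 95% interval -0.17 to 0.48, edgeR adjusted p = 0.914). It was 0.01 without M_766 and 0.30 without M_770, the highest vehicle mouse.

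S1PR1 (chromosome 1, 101236865 to 101243713, plus strand), the receptor that lymphocytes use to leave tissue, stood at 16.6, 14.5 and 18.2 CPM in tazemetostat mice M_767, M_768 and M_774. Vehicle mice M_766, M_769 and M_770 had 11.4, 10.9 and 12.02 CPM. All tazemetostat mice were above all vehicle mice, and so were the libraries, 13.8 to 18.4 CPM against 10.4 to 12.7 CPM. The log2 fold change was 0.52 (SE 0.118, 95% interval 0.26 to 0.78, edgeR adjusted p = 0.323). Leaving out library M_768_C gave 0.52, and leaving out 1 mouse gave values between 0.45 and 0.60. S1PR1 is also a receptor of endothelial cells, and of the 12 endothelial and fibroblast markers CDH5 and COL3A1 had no count in any mouse. The summed level of those 12 was 23.1, 21.6 and 20.9 CPM in tazemetostat mice M_767, M_768 and M_774 and 14.0, 20.8 and 20.7 CPM in vehicle mice M_766, M_769 and M_770, of which FN1 and TAGLN made up most (exact permutation p = 0.1, two-sided, the smallest 3 against 3 mice can give). Of the 12, 7 were tested, 5 were positive (median log2 fold change 0.30), and none passed. On the higher side 2 of the 7 had an unadjusted p under 0.05, against 3.34% of all tested genes. PDGFRB, of pericytes and fibroblasts, averaged 0.618 CPM in tazemetostat mice and 0.247 CPM in vehicle mice. KDR, of endothelial cells, averaged 0.126 CPM in tazemetostat mice and 0.0345 CPM in vehicle mice. That vehicle mean of KDR is below the 0.0454 to 0.0538 CPM that 3 counts equal in a vehicle mouse, so its difference is uncertain. PECAM1 averaged 0.807 CPM in tazemetostat mice and 0.826 CPM in vehicle mice. The hosts were mice and the counted genes are human, and whether mouse reads entered these counts was not examined. The part of host cells in the S1PR1 difference was not tested.

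Because S1PR1 and S1PR2 bind the same lipid, their counts were set against each other within each mouse, a ratio that no scaling factor enters and that was chosen after both levels had been seen. There were 4.18, 5.11 and 4.33 S1PR2 counts for each S1PR1 count in tazemetostat mice M_767, M_768 and M_774, and 8.93, 8.75 and 7.23 in vehicle mice M_766, M_769 and M_770. The ratio had to be lower in every tazemetostat mouse, because S1PR2 was lower and S1PR1 higher there. Its separation of the groups is therefore not a further result. Its means were 4.54 ± 0.496 and 8.30 ± 0.932 (tazemetostat and vehicle, SD, n = 3 each). Its libraries ran from 3.91 to 5.51 in the tazemetostat group and from 6.43 to 9.81 in the vehicle group. Per kilobase, S1PR1 made up 4.88% of the level of S1PR1, S1PR2 and S1PR4 together in tazemetostat mice and 2.93% in vehicle mice. S1PR2 made up 31.5% and S1PR4 63.6% in tazemetostat mice, against 34.5% and 62.6% in vehicle mice.

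**Figure D3:**
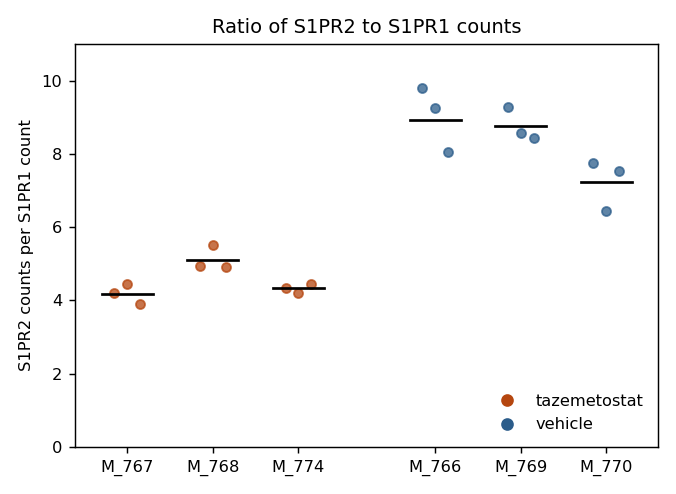
S1PR2 counts per S1PR1 count in each library (points) and each mouse sum (bars), tazemetostat mice at the left. The tazemetostat libraries lie between 3.91 and 5.51 and the vehicle libraries between 6.43 and 9.81. S1PR2 and S1PR1 each kept the groups apart, in opposite directions, so the ratio had to do so too.

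S1PR4 (chromosome 19, 3172346 to 3180332, plus strand), a sphingosine-1-phosphate receptor of blood cells, was the S1P receptor with the highest level per kilobase in every mouse. It was at 62.7, 71.1 and 71.6 CPM in tazemetostat mice M_767, M_768 and M_774, against 105, 69.5 and 66.6 CPM in vehicle mice M_766, M_769 and M_770. Mouse M_766 alone was high, and the other 5 lay together across both groups. The log2 fold change of -0.23 (SE 0.159, 95% interval -0.59 to 0.12, edgeR adjusted p = 0.863) was 0.02 without M_766. Without library M_768_C, at 98.0 CPM the highest of the tazemetostat libraries, it was -0.30.

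GPR183 (chromosome 13, 99294530 to 99307405, minus strand) is the oxysterol receptor that germinal center B cells normally turn down. Tazemetostat mice M_767, M_768 and M_774 had 30.5, 27.5 and 27.8 CPM, and vehicle mice M_766, M_769 and M_770 had 28.7, 18.1 and 22.9 CPM. The groups overlapped through M_766, which was as high as the tazemetostat mice, while M_769 and M_770 were lower. The log2 fold change was 0.30 (SE 0.149, 95% interval -0.03 to 0.63, edgeR adjusted p = 0.798), and 0.49 without M_766 and 0.15 without M_769, with no pass in either case. The gene lies within that of UBAC2 on the opposite strand and shares no exon base with it.

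CXCR4 (chromosome 2, 136114349 to 136118165, minus strand), the receptor for CXCL12, had 637, 678 and 621 CPM in tazemetostat mice M_767, M_768 and M_774. Vehicle mice M_766, M_769 and M_770 had 641, 620 and 531 CPM. The groups overlapped, and M_770 was the lowest of the 6. The interval of the log2 fold change ran from -0.11 to 0.34 (estimate 0.11, SE 0.102, edgeR adjusted p = 0.910). The estimate was 0.04 without M_770 and 0.18 without M_766.

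CXCR5 (chromosome 11, 118883766 to 118897799, plus strand), the receptor for CXCL13, varied more between mice than any other tested member. It was at 3.77, 3.25 and 1.66 CPM in tazemetostat mice M_767, M_768 and M_774, against 0.832, 2.34 and 5.16 CPM in vehicle mice M_766, M_769 and M_770. The highest mouse was 6.20 times the lowest, both were vehicle mice, and the groups overlapped throughout. The standard deviation of log2 CPM within groups was 1.02, a value at or above that of 99.6% of tested genes. The interval of the log2 fold change, -1.06 to 1.21 (estimate 0.07, edgeR adjusted p = 0.990), allows a change of more than 1 on the log2 scale in either direction, and the estimate was 0.89 without M_770 and -0.35 without M_766. Of its 4431 exon bases, 3925 are also exon of BCL9L, a cofactor of beta-catenin on the opposite strand, so the CXCR5 counts are uncertain, since the strand setting of the counting is unknown. BCL9L had 470, 275 and 296 counts, not scaled for depth, in tazemetostat mice M_767, M_768 and M_774. In vehicle mice M_766, M_769 and M_770 it had 210, 277 and 447. Like CXCR5, it was lowest in M_766 and, among the vehicle mice, highest in M_770. Reads left uncounted between the gene models were not examined.

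CCR7 (chromosome 17, 40553769 to 40565472, minus strand), which guides lymphocytes towards CCL19 and CCL21, was at 5.82, 5.66 and 4.74 CPM in tazemetostat mice M_767, M_768 and M_774. Vehicle mice M_766, M_769 and M_770 had 5.05, 5.80 and 6.75 CPM. The groups overlapped (log2 fold change -0.12, SE 0.159, 95% interval -0.47 to 0.24, edgeR adjusted p = 0.947). CCR6 (chromosome 6, 167111807 to 167139696, plus strand), the receptor for CCL20, had 3, 0 and 1 counts in the same tazemetostat mice and 2, 1 and 3 in the same vehicle mice. It was not tested, and no difference was detectable at this depth, where 3 counts equal 0.0430 to 0.0538 CPM. Another gene model on the same strand, Z94721.2, shares 3008 of the 4346 exon bases of CCR6 and had 48 to 82 counts a mouse, so a low CCR6 count is uncertain as a level.

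**Figure D4:**
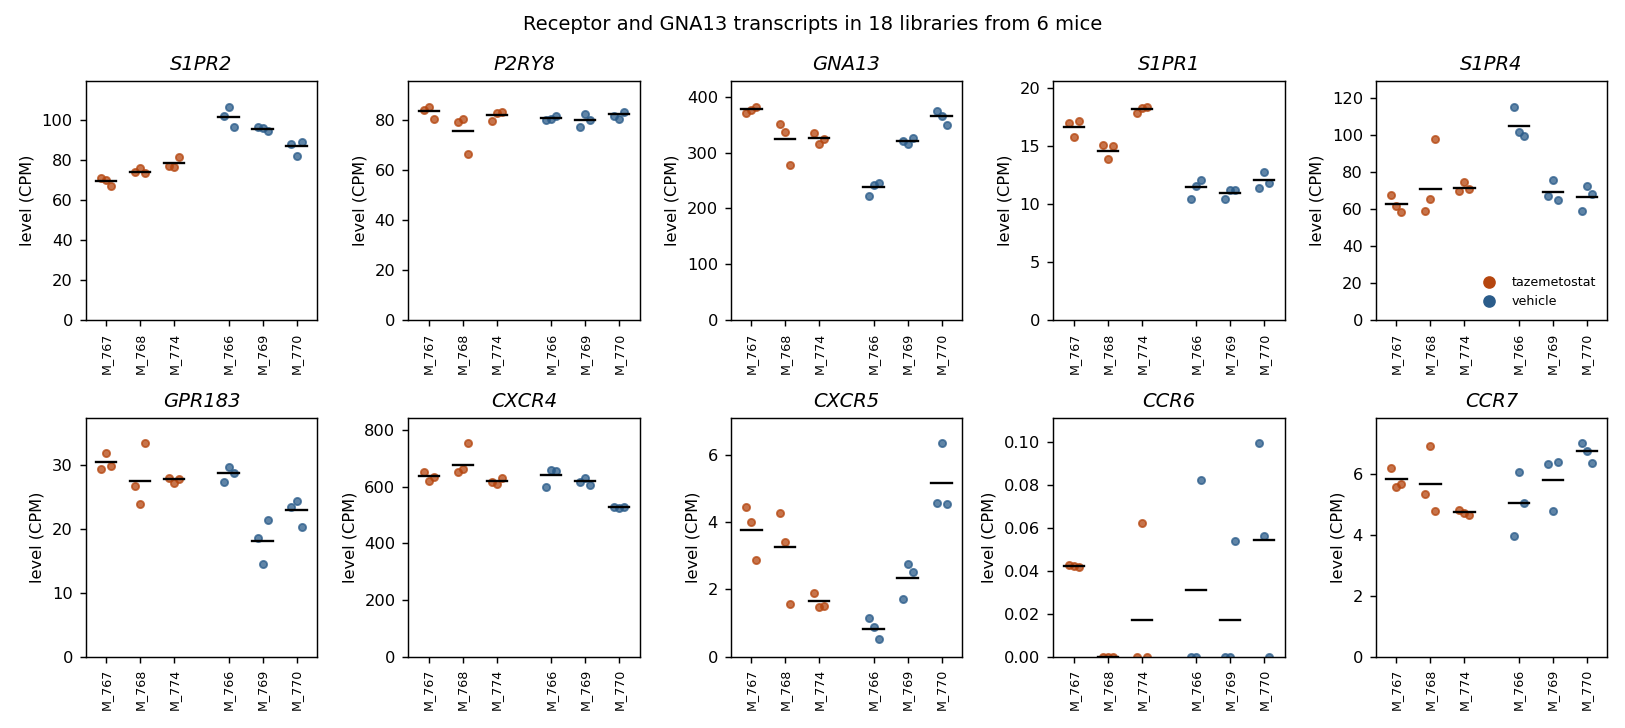
Level of each of the 10 genes in CPM, from 0, with points for the libraries of each mouse, black bars for the mouse sums, and tazemetostat mice at the left. S1PR2 and S1PR1 separate the groups in all 6 mice, M_766 stands apart in S1PR4 and GNA13, and M_768_C in S1PR4, P2RY8 and CXCR4.

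The ligands of the chemokine receptors were all but missing from the tumour cells' RNA. CXCL12, CCL20 and CCL21 had 0 counts in all 6 mice, which allows up to 0.0430 to 0.0538 CPM a mouse. CCL19 had 2 counts in all. CXCL13 had 9 counts over the tazemetostat mice and 1 over the vehicle mice, too few to test. Of 22 genes of ligand supply 15 were tested, 9 were positive and none passed (median log2 fold change 0.06). CH25H, which makes the precursor of the GPR183 ligand, averaged 0.751 ± 0.177 CPM in tazemetostat mice and 0.295 ± 0.138 CPM in vehicle mice (SD, n = 3 each, edgeR adjusted p = 0.472). The later enzymes of that route had a single count for CYP7B1 and, for HSD3B7, 1.51 ± 0.0897 CPM in tazemetostat mice and 1.78 ± 0.154 CPM in vehicle mice. PLPP3, a phosphatase that degrades sphingosine-1-phosphate, was at 3.12 ± 0.169 CPM in tazemetostat mice and 2.17 ± 0.0468 CPM in vehicle mice (edgeR adjusted p = 0.520). GGT1, a gamma-glutamyltransferase, averaged 0.639 ± 0.0542 CPM in tazemetostat mice and 1.299 ± 0.479 CPM in vehicle mice (edgeR adjusted p = 0.469). SGPP1, a sphingosine-1-phosphate phosphatase, had a log2 fold change of 0.16.

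Downstream of GNA13, 16 of 16 listed genes were tested, 10 were positive and none passed (median log2 fold change 0.08). ARHGEF1 averaged 232 ± 3.58 CPM in tazemetostat mice and 265 ± 18.1 CPM in vehicle mice (log2 fold change -0.19, edgeR adjusted p = 0.764). PPP1R12A, which targets myosin phosphatase, was at 91.2 ± 7.65 CPM in tazemetostat mice and 71.2 ± 12.2 CPM in vehicle mice (edgeR adjusted p = 0.635). The myosin light chains MYL9 and MYL12A had log2 fold changes of 0.48 and 0.19. Of 28 motility genes, all tested, 16 were positive and none passed (median 0.03), and those with the smallest p were ITGB7 at 0.77, ELMO1 at 0.18, RAP1B at 0.13 and CORO1A at -0.17 on the log2 scale.

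Of 19 Gi protein and RGS genes, which carry and limit chemoattractant signals, 16 were tested, 7 were positive and none passed (median log2 fold change -0.02). RGS2 averaged 116 ± 25.3 CPM in tazemetostat mice and 62.0 ± 13.4 CPM in vehicle mice without overlap (log2 fold change 0.91, edgeR adjusted p = 0.219). RGS1, which restrains chemokine receptors, was at 5.93 ± 1.41 CPM in tazemetostat mice and 3.25 ± 1.62 CPM in vehicle mice, and RGS13, typical of germinal center B cells, at 33.1 ± 4.62 CPM in tazemetostat mice and 39.3 ± 6.14 CPM in vehicle mice. RGS16 was at -0.15 on the log2 scale, and GNAI2 was at 190 ± 5.64 CPM in tazemetostat mice and 187 ± 7.44 CPM in vehicle mice. Of 12 genes of receptor desensitisation and trafficking 11 were tested, 6 were positive and none passed (median 0.04). CD69, which pulls S1PR1 from the cell surface, averaged 203 ± 22.5 CPM in tazemetostat mice and 132 ± 39.1 CPM in vehicle mice (log2 fold change 0.62, edgeR adjusted p = 0.522). GRK2, a kinase that desensitises S1PR1, was at 546 ± 19.0 CPM in tazemetostat mice and 662 ± 65.9 CPM in vehicle mice (log2 fold change -0.28, edgeR adjusted p = 0.647). Its relative GRK6 was at -0.39 and the ubiquitin ligase ITCH at 0.23 on the log2 scale.

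Among 20 regulators of these receptor genes, all tested, 13 were positive and none passed (median log2 fold change 0.05). KLF2, which activates S1PR1 in mouse lymphocytes, was at 22.8, 20.8 and 20.1 CPM in tazemetostat mice M_767, M_768 and M_774, against 13.2, 14.6 and 24.2 CPM in vehicle mice M_766, M_769 and M_770. Its groups overlapped through M_770 (log2 fold change 0.30, edgeR adjusted p = 0.854). FOXO1, a dark zone factor, averaged 141 ± 9.63 CPM in tazemetostat mice and 122 ± 13.4 CPM in vehicle mice (edgeR adjusted p = 0.803). BCL6, a repressor on which germinal center B cells depend, was at 88.6 ± 6.36 CPM in tazemetostat mice and 101 ± 20.8 CPM in vehicle mice (edgeR adjusted p = 0.884). TCF3 was at -0.29, POU2F2 at 0.35 and SPIB at 0.23 on the log2 scale. Of 27 other chemoattractant receptors 17 were tested, 9 were positive and none passed (median 0.08), with CCR1 at 1.21, ADORA2A at -0.57, GPR174 at 0.42 and PTGER4 at 0.34 on the log2 scale. The dark and light zone list had 19 of 20 genes tested, 10 positive and none past the threshold (median 0.13), with ICAM1 at 0.38, EGR1 at 1.39, MME at -0.31 and CD24 at -0.25.

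Most genes of the dissociation-stress list, known to respond when tissue is broken up to free its cells, had higher means in tazemetostat mice. Of 24 tested, 22 were positive (median log2 fold change 0.51), 15 had an unadjusted p under 0.05 on the higher side, where 3.34% of all tested genes did, and none passed the adjusted threshold. Their summed level was 6751, 6835 and 5500 CPM in tazemetostat mice M_767, M_768 and M_774 and 4033, 5113 and 5611 CPM in vehicle mice M_766, M_769 and M_770 (exact permutation p = 0.2, two-sided). Mouse M_766, lowest in that sum, was the mouse that stood apart in S1PR4 and GNA13, and it was the lowest in CXCR5, which varied widely between mice. The part of tissue handling in the levels of the 10 genes was not tested.

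**Figure D5:**
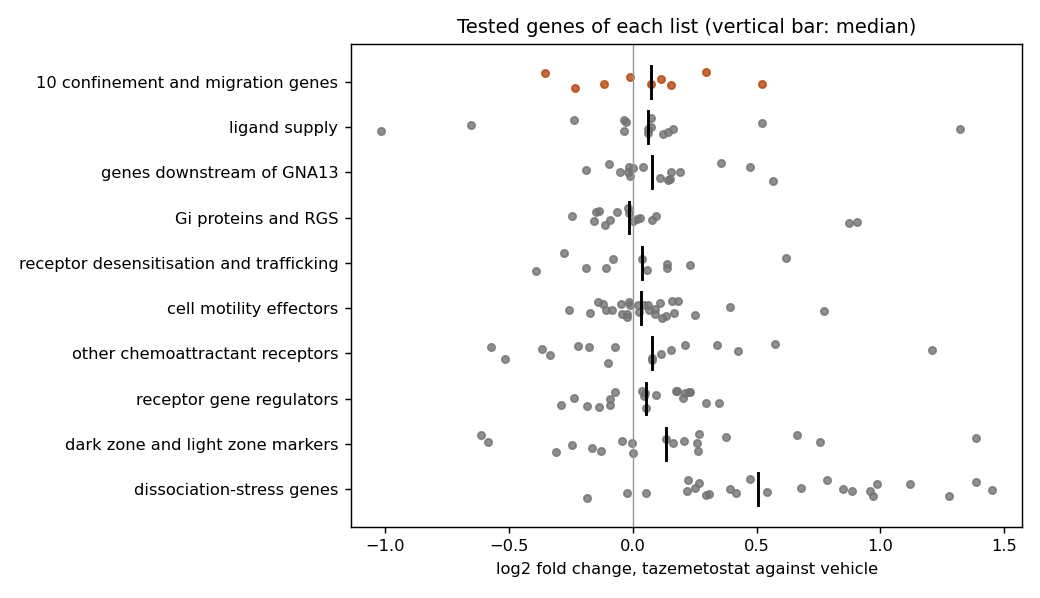
Log2 fold change of tazemetostat against vehicle mice for every tested gene of 10 lists, with the median of each list as a vertical bar. The 9 tested confinement and migration genes lie on both sides of 0 with a median of 0.07, and the dissociation-stress genes have a median of 0.51.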

How the data were processed

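The authors deposited whole-number read counts per gene per the file headers, and the values carry no normalization. Gene lengths stand beside them. The submitters' processing notes name hg38 and DESeq2. Which aligner, counter and strand setting they used is not given in the sources used here. Starts and ends of all 58735 genes equalled those of GENCODE release 29, whose exons gave the overlaps.

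Each mouse's 3 libraries were summed, and the sums were tested by quasi-likelihood F tests in edgeR 4.0.16 (R 4.3.3). Scaling used TMM factors, filterByExpr left 20301 genes at a minimum count of 10, and p-values were adjusted by Benjamini-Hochberg with a threshold of 0.05. The steps were tested on simulated data. CPM uses the TMM factors, except summed marker levels, which are scaled to all counts. The standard error (SE) was approximated as the log2 fold change, without sign, over the root of its F value, and 95% intervals use it. All 18 pairs of libraries from the same mouse differed by more than counting noise (chi-square tests). Chi-square per degree of freedom was 67.3 for M_768_C with M_768_A and 49.4 with M_768_B. It ran from 2.02 to 4.81 in the other pairs. Deviations from the mouse means correlated by -0.00407 on average over 45 pairs of libraries with 1 letter, so letters did not pair samples. Nothing states that the mice were handled as separate experiments, so p-values measure the spread between these mice. The limit for a count of 0 is 3 counts and covers counting error only.

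Named were all 10 members, up to 4 genes of each pathway list (those of smallest p) and 18 others picked for their role. Members and lists were chosen with earlier results of these data known. Alternatives were other scaling factors and filters, DESeq2 1.42.0, limma 3.58.1 fits, and leaving out each mouse or library M_768_C. Promoter sequences are RefSeq's (GRCh38.p14).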

Additional observations from a re-analysis of the deposited data

Results flagged for a closer look

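Among the 9 libraries of each treatment group, taken gene by gene, library M_768_C was far from the others of the tazemetostat group in 3 of the 10 genes. S1PR4 was at 98.0 CPM in it and at 58.3 to 74.7 CPM in the other tazemetostat libraries. P2RY8 was at 66.5 CPM in it and at 79.4 to 85.4 CPM in the others, and CXCR4 at 754 CPM in it and at 611 to 663 CPM in the others. Chance marks about 1 in 20 such groups, and libraries of a mouse are not independent.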

How the results depend on the processing

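None of the 10 genes passed with median-of-ratios, upper-quartile or no scaling factors, with a minimum count of 30, with limma-voom on the mouse sums, without library M_768_C, with any mouse left out, or at an adjusted p of 0.1. Without a low-count filter 1 passed (S1PR1, adjusted p = 0.023; 0.685% of genes called), with DESeq2 1 (S1PR1; 0.611%), with the mouse as a random effect over 18 libraries 2 (1.38%), and with the letter as a replicate block beside it 2 (S1PR1 and S1PR2; 1.16%). Of the other listed genes, of which 194 were tested by edgeR with 0 calls, those settings called 23, 7, 19 and 15, and leaving out a mouse gave 0 to 2. The cause of these differences was not tested. Over 16 alternatives the log2 fold change of S1PR1 ran from 0.45 to 0.60 (adjusted p 0.00267 to 0.965) and that of S1PR2 from -0.41 to -0.29 (0.00373 to 1). GPR183, GNA13 and CXCR4 also kept their sign, at 0.15 to 0.49, 0.01 to 0.30 and 0.04 to 0.18. The P2RY8 value turned to 0.014 without M_768_C. Without that library GNA13 was at 0.18, GPR183 at 0.27, CXCR4 at 0.10 and CXCR5 at 0.17. S1PR2 was at -0.35 and CCR7 at -0.08 without it. With each mouse left out, P2RY8 ran from -0.038 to 0.030, S1PR4 from -0.35 to 0.019, CXCR5 from -0.35 to 0.89 and CCR7 from -0.20 to 0.0015. Depth limits CCR6 and the chemokine ligands.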

Other observations

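Vehicle mouse M_766 and tazemetostat library M_768_C shared an extreme level in S1PR4 and GNA13, a pattern seen after their values. S1PR4 was at 98.0 CPM in M_768_C and at 105 CPM in M_766, while the remaining mice and libraries had no more than 75.7 CPM. GNA13 was at 277 CPM in M_768_C and 238 CPM in M_766, and from 315 to 382 CPM in all the remaining libraries. P2RY8 was at 66.5 CPM in M_768_C and 80.8 CPM in M_766, and S1PR2 at 73.4 CPM in M_768_C and 102 CPM in M_766. CXCR4 was at 754 CPM in M_768_C, its highest library, and 641 CPM in M_766, its highest vehicle mouse. GPR183 was at 33.4 CPM in M_768_C, also its highest library, and 28.7 CPM in M_766, its highest vehicle mouse. For CXCR5, M_768_C was the lowest library of its mouse at 1.56 CPM, and M_766 was the lowest mouse at 0.832 CPM.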
